A study of Mus musculus with 2 samples.

Results

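The replication-dependent histone genes of the Hist1, Hist2, Hist3 and Hist4 clusters were examined in the embryonic mouse midbrain. Members were the protein-coding genes whose GENCODE M21 symbol starts with Hist1h, Hist2h, Hist3h or Hist4h, matched by Ensembl identifier, and 64 of the 43346 Ensembl gene rows qualified. Of 67 such symbols in the annotation, Hist1h2bh, Hist1h2bm and Hist2h2bb had no row under their identifier and were not analysed here. The data are 2 total RNA-seq libraries of midbrain from embryos of the B6NCrl strain at 14.5 days of development, untreated and without an engineered allele in the labels. Each library was made from the midbrain of 1 pup, with a separate collection day for each, and these libraries are called embryo 1 and embryo 2. The sex label says pooled although only 1 pup was used per library. Both libraries were made from 10 ng of RNA longer than 200 nt with ERCC spike-in RNAs, by a general protocol named after SmartSeq, a method for small amounts of RNA. With 1 group of 2 embryos there was no comparison to test, and ratios between the embryos describe these libraries only.

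Core histones H2A, H2B, H3 and H4 form the protein spool of the nucleosome, and linker histone H1 binds the DNA where it enters and leaves. Cells need new histones while they copy their DNA, and the clustered genes are transcribed mainly in S phase. Their mRNAs are usually unspliced and end in a conserved stem-loop in place of a poly(A) tail. The protein SLBP binds this stem-loop and directs the cut that forms the mRNA end. Some clustered genes, among them the human counterparts of Hist1h1c and Hist2h2be, are also known to give polyadenylated transcripts in cells that have left the cycle.

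The stem-loop is shown because it defines this class of mRNA, for the 4 members with the highest mean TPM and for an H1 gene and genes with other forms. It was searched for in the annotated GENCODE M21 transcripts and found in 42 of the 64 members. The stem-loop is in capitals below, with its flanking bases in lower case, written as DNA 5′ to 3′ in the sense of the transcript.
Hist1h2ap: aaaGGCTCTTTTCAGAGCCatc
Hist3h2ba: aaaGGCTCTTTTCAGAGCCacctt
Hist3h2a: aaaGGCTCTTTTCAGAGCCaccca
Hist1h1c: aaaGGCTCTTTTCAGAGCCaccac
Hist1h3e: aacGGCTCTTTTAAGAGCCacctc
Hist1h4d: aaaGGCCCTTTTCAGGGCCactac
Hist2h4: aacGGCCCTTTTTAGGGCCaacca
Hist1h4b: aaaGGTCCTTTTCAGGACCactca
The form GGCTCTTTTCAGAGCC was found in 10 H2A, 6 H2B, 5 H3 and 3 H1 genes, and in none of the H4 genes. The H4 genes carried 3 forms of their own, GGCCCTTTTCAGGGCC in 7 genes, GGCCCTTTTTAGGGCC in 2 and GGTCCTTTTCAGGACC in 2. The annotated Hist1h2ap transcript ends 3 bases after the stem-loop, whereas that of Hist3h2ba continues for 169 bases and that of Hist3h2a for 1643 bases. A member with no match lacks these letters in its annotated transcript, and nothing more follows from that.

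Histone mRNA of the clusters was a small share of what these midbrain libraries measured, and a few genes held most of it. TPM (a level scaled for transcript length and library total) summed over the 64 members to 1449 in embryo 1 and 1649 in embryo 2, a mean of 1549 ± 142 (SD over n = 2 embryos, and likewise for each ± below). This was 0.157% and 0.179% of the TPM of all Ensembl rows in embryo 1 and embryo 2. The members took 15084 of 31687050 gene counts in embryo 1 and 17306 of 29182388 in embryo 2. Genes at a TPM of 1 or more in each embryo are called detected, which held for 37 of 64 members (57.8%), against 59.5% of all protein-coding genes. The share of members detected was thus near that background. The median member had a TPM of 2.10 in embryo 1 and 1.84 in embryo 2, against medians of 5.00 and 4.17 over protein-coding genes. In bulk tissue, fewer expressing cells and less RNA per cell cannot be told apart. The cDNA priming was not given, so poor capture of mRNAs without a poly(A) tail cannot be told apart from these either.

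Hist1h2ap, Hist3h2ba, Hist1h4d and Hist3h2a together held 76.0% of the summed member TPM in embryo 1 and 79.6% in embryo 2. Only 10 members reached a TPM of 10 in both embryos. Below them, 44 members outside the 20 highest had mean levels from 0 to 4.27. In all, 5 members had 0 counts in both embryos and 8 had 0 counts in 1 embryo. Spearman's rho of the levels in both embryos was 0.90 over the 64 members, which share libraries, annotation and reads, so it is given as a description.

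**Figure D1:**
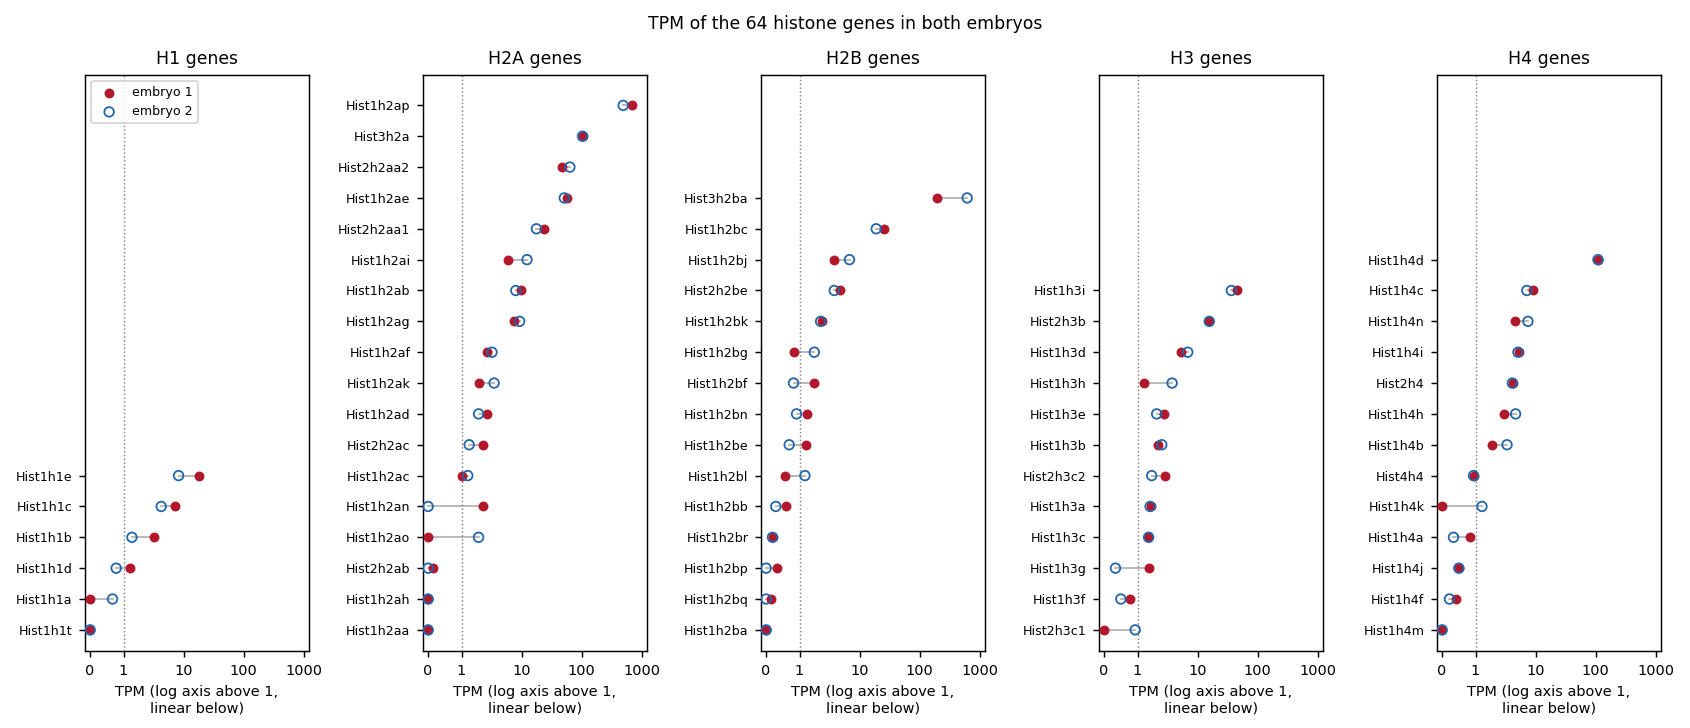
TPM of each of the 64 histone genes (rows, by class and ordered by mean) on an axis that is logarithmic above 1 and linear below, with filled points for embryo 1 and open points for embryo 2. Most genes of every class lie below a TPM of 10, and Hist3h2ba shows the wide gap of 192 in embryo 1 against 614 in embryo 2.

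Linker histone genes of the clusters had the lowest summed TPM of the histone classes. H1 genes summed to a TPM of 29.9 in embryo 1 and 15.3 in embryo 2, and held 2.06% and 0.93% of the member TPM. Hist1h1e, which encodes a widely expressed linker histone, led with a TPM of 18.3 in embryo 1 and 8.24 in embryo 2. Hist1h1c, another linker histone of many tissues, had 7.11 and 4.23 in embryo 1 and embryo 2. Hist1h1b had 3.24 and 1.38, and Hist1h1d had 1.29 and 0.78, in the same order. In each of these genes embryo 1 stood above embryo 2. Hist1h1a had 0 counts in embryo 1, where 3 counts would be a TPM of 0.288, and 0.67 TPM from 7 counts in embryo 2. Hist1h1t, the linker histone of male germ cells, had 0 counts in both embryos, with a floor of 0.249 TPM in each. The testis core histone genes Hist1h2ba and Hist1h2aa were also at 0 counts in both, with posterior mean TPM values from 0.17 to 0.27. Hist1h4m and Hist1h2ah were listed at 0 in both as well, but 88.1% and 89.5% of their read-length windows occur in other genes. The authors' posterior mean TPM was 0.91 in embryo 1 and 1.23 in embryo 2 for Hist1h4m, and 1.52 and 1.37 for Hist1h2ah, so a floor of 3 counts does not limit these genes.

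H2A genes formed the largest class in TPM, with a sum of 965 in embryo 1 and 765 in embryo 2 over 18 genes, 13 of them detected. Hist1h2ap, on the minus strand of chromosome 13 at 21833026 to 21833507 (GRCm38), had a TPM of 696 in embryo 1 and 488 in embryo 2, from 5108 and 3572 counts. It alone held 72.2% of the H2A level in embryo 1 and 63.7% in embryo 2. Hist3h2a, on the plus strand of chromosome 11 at 58954685 to 58956830, had 105 in embryo 1 and 103 in embryo 2, so its level was nearly equal. Its span overlaps Trim17 on the same strand, which had 58.7 and 71.9 counts against 4109 and 4021 for Hist3h2a. Hist1h2ae followed with 57.0 in embryo 1 and 51.1 in embryo 2. Hist2h2aa2 had 46.9 and 63.4, and its neighbour Hist2h2aa1 had 23.6 and 17.6, in embryo 1 and embryo 2. All read-length windows of both Hist2h2aa genes occur in another gene, so only their sum of 70.6 TPM in embryo 1 and 81.0 in embryo 2 is read here. Hist1h2ai had 5.92 and 12.3, Hist1h2ab 9.83 and 7.98, and Hist1h2ag 7.38 and 9.24, in embryo 1 and embryo 2.

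H2B genes differed most between the embryos, and this rested on 1 gene. Hist3h2ba lies on the plus strand of chromosome 11 at 58948920 to 58949533, next to Hist3h2a, and encodes an H2B. It had a TPM of 192 in embryo 1 and 614 in embryo 2, from 1897 and 6041 counts. It held 81.7% of the H2B level in embryo 1 and 94.2% in embryo 2. The other 14 H2B genes summed to 43.1 in embryo 1 and 37.5 in embryo 2. Of these, Hist1h2bc had 25.3 and 18.8, Hist1h2bj 3.68 and 6.78, and Hist2h2be 4.76 and 3.78, in embryo 1 and embryo 2. Only 5 of the 15 H2B genes were detected. Hist1h2bh, Hist1h2bm and Hist2h2bb, the symbols with no row, are H2B genes as well. The H2B sums here and the H2B shares below leave them out.

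H3 and H4 genes had sums that were close in both embryos. The 12 H3 genes reached 80.6 TPM in embryo 1 and 73.7 in embryo 2. Hist1h3i gave 56.0% of this in embryo 1 and 49.2% in embryo 2, with 45.2 in embryo 1 and 36.3 in embryo 2. Hist2h3b had 15.5 and 15.6, and Hist1h3d had 5.35 and 6.84, in embryo 1 and embryo 2. All windows of Hist2h3b occur in other genes, among them Hist2h3c1 and Hist2h3c2, so its own level is uncertain. The 13 H4 genes reached 138 TPM in embryo 1 and 144 in embryo 2. Hist1h4d, on the plus strand of chromosome 13 at 23581598 to 23582735, gave 77.7% and 75.7% of this, with a TPM of 107 in embryo 1 and 109 in embryo 2. No window of its annotated transcript occurs in another gene. The remaining named H4 genes were Hist1h4c at 9.20 in embryo 1 and 7.13 in embryo 2, Hist1h4n at 4.49 and 7.43, Hist1h4i at 5.31 and 5.08, and Hist2h4 at 4.23 and 4.10.

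In order of mean level, Hist1h2ap (592 ± 147) and Hist3h2ba (403 ± 298) could not be ranked, since Hist1h2ap was above Hist3h2ba in embryo 1 and below it in embryo 2. Both were above Hist1h4d (108 ± 1.24) and Hist3h2a (104 ± 1.46) in each embryo. With the Hist2h2aa genes left aside, Hist1h2ae (54.0 ± 4.14) came next and was above Hist1h3i (40.7 ± 6.27) in each embryo.

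The classes did not hold equal shares of the mRNA. H2A genes took 66.6% of the member TPM in embryo 1 and 46.4% in embryo 2, and H2B genes took 16.3% and 39.5%. H4 genes took 9.52% and 8.72%, and H3 genes took 5.56% and 4.47%. By cluster, the 52 Hist1 genes on chromosome 13 held 72.5% in embryo 1 and 49.9% in embryo 2, and the 2 Hist3 genes on chromosome 11 held 20.5% and 43.4%. The 9 Hist2 genes on chromosome 3 held 6.92% and 6.58%, and the single Hist4 gene Hist4h4 on chromosome 6 held 0.066% and 0.057%. Per gene, the Hist3 cluster stood at a TPM of 149 in embryo 1 and 358 in embryo 2, against 20.2 and 15.8 for Hist1. In counts, which are not scaled for length, Hist3 held 39.8% in embryo 1 and 58.1% in embryo 2, with transcript lengths of 2146 bases for Hist3h2a and 614 for Hist3h2ba.

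**Figure D2:**
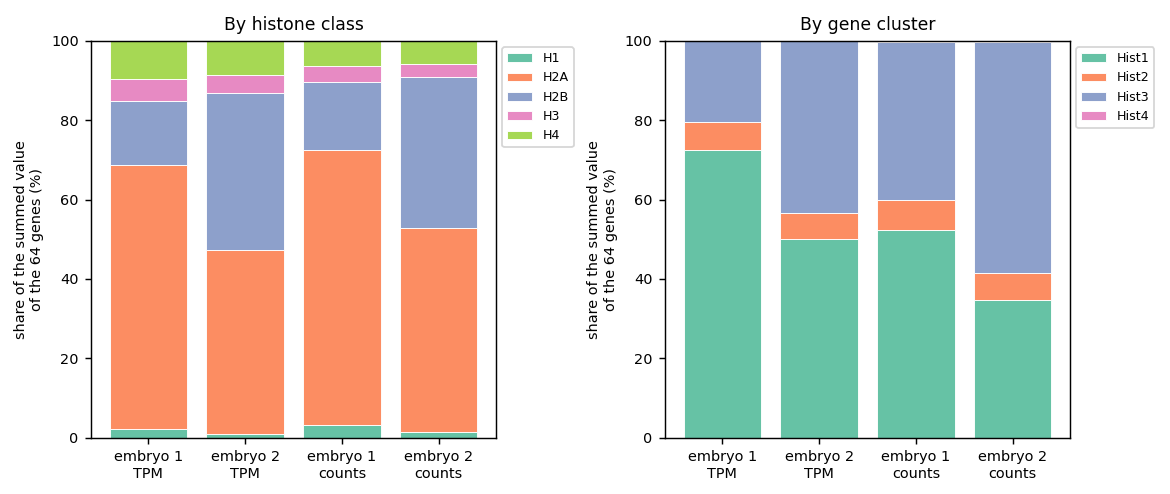
Stacked bars give the share (%) of the summed value of the 64 genes held by each histone class (left) and each gene cluster (right), by TPM and by expected counts, with embryo 1 left of embryo 2. The H2B share is 16.3% in embryo 1 and 39.5% in embryo 2 by TPM, and the Hist3 share is larger by counts than by TPM in both embryos.

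The Hist1 cluster falls into 2 blocks on chromosome 13, 1487.4 kb apart. The first block, from 21715763 to 22043676, holds 22 members with a summed TPM of 782 in embryo 1 and 582 in embryo 2. The second, from 23531050 to 23934851, holds 30 members with 268 and 242. Detected genes were 11 of 22 in the first block and 17 of 30 in the second. Within both blocks the high genes stood singly among low neighbours, such as Hist1h2ap between Hist1h4n and Hist1h2br. Of the read-length windows of these genes, 92.2%, 80.7% and 86.4% in that order occur in other genes. How far read assignment enters this pattern was not tested.

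**Figure D3:**
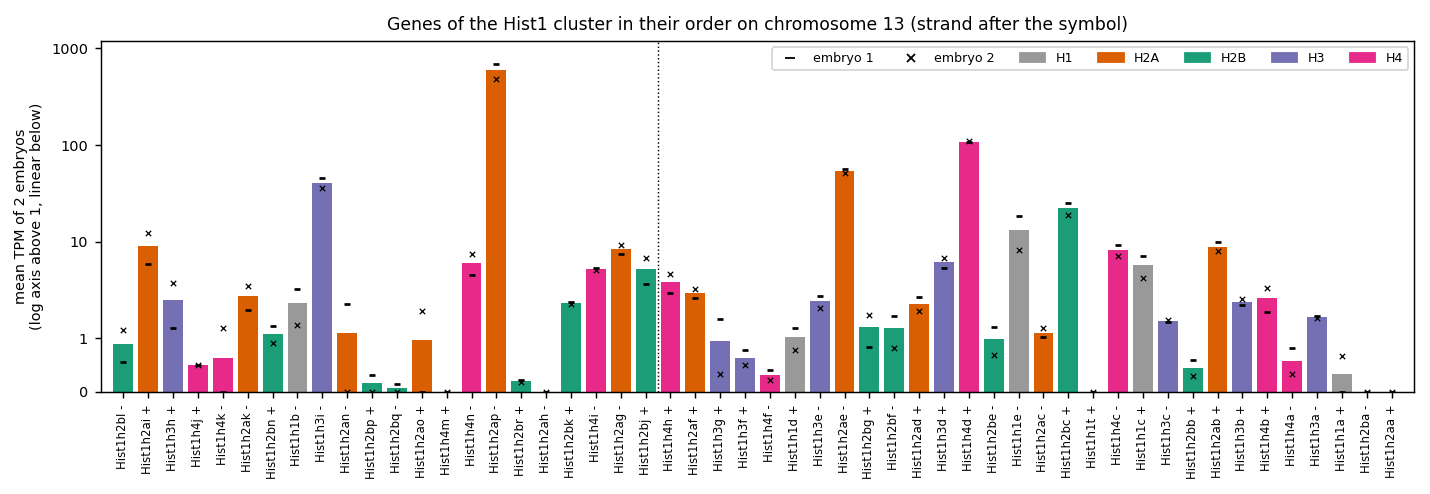
Mean TPM of the 52 Hist1 genes (bars, coloured by class, logarithmic above 1 and linear below) in their order on chromosome 13, with a dash for embryo 1 and a cross for embryo 2. A dotted line parts the 2 blocks. Hist1h2ap and Hist1h4d are the tallest bars, and their neighbours on both sides are far lower.

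Many H2A and H2B genes are arranged as divergent pairs that share the DNA between their starts. Pairs on opposite strands with starts within 500 bases numbered 12, and each joined an H2A gene to an H2B gene. In the 3 pairs with a gene at a TPM of 10 in both embryos, the partner was low. Hist1h2br had 0.22 TPM in embryo 1 and 0.19 in embryo 2, beside Hist1h2ap at 696 and 488, with 236 bases between the genes. Hist1h2bg had 0.83 and 1.76, beside Hist1h2ae at 57.0 and 51.1. Hist1h2ac had 1.02 and 1.27, beside Hist1h2bc at 25.3 and 18.8. Reads of near-identical copies can be assigned to the wrong gene, and how far this enters the gap within a pair was not tested.

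Shared sequence limits which copy a read can be given to. Over annotated transcripts, the share of 100-base windows (the read length that the deposited effective lengths match) found in another gene had a median of 69.9% for H2A, 49.7% for H3, 40.1% for H2B, 19.0% for H4 and 0.40% for H1 genes. More than 50% of the windows were shared in 27 members, all in 4 and none in 6. For the 18 members whose M21 transcript differs in length from the deposited one, these shares refer to other bases than those quantified. Hist1h2ac, for example, had 2383 windows against a deposited effective length of 377 bases, and a share of 8.06%. The authors' posterior SD of the count, a measure of uncertain assignment, was above 10% of the count in both embryos for 28 members. Among the 20 members with at least 100 summed counts these were Hist2h2aa1, Hist1h2ai, Hist1h2ab, Hist1h2ag and Hist1h3d. The posterior SD was 0.84 counts in embryo 1 and 1.24 in embryo 2 for Hist3h2ba, of whose windows 4.85% were shared. For Hist1h2ap it was 31.8 and 33.2 counts, although 92.2% of its windows were shared. Median identity of coding sequences of equal length was 96.4% within H2A, 97.4% within H2B, 97.2% within H3 and 93.9% within H4.

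**Figure D4:**
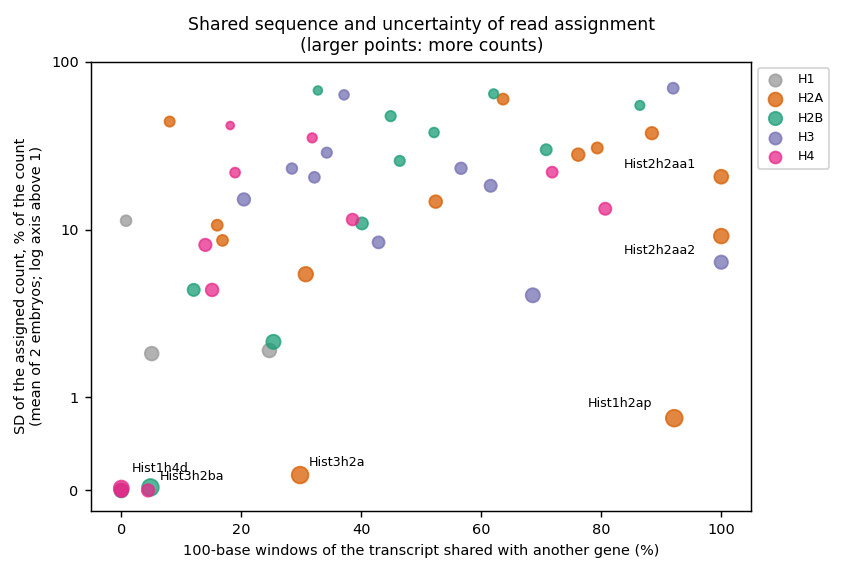
For the 51 members with counts in both embryos, the share of 100-base transcript windows that occur in another gene (%, horizontal) is set against the posterior SD of the count as a percentage of the count (mean of both embryos, logarithmic above 1). Hist3h2ba and Hist1h4d sit at the lower left, while Hist2h2aa1 and Hist2h2aa2 have all windows shared.

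Ratios of embryo 1 over embryo 2 were taken from expected counts scaled by TMM, with a 95% interval for counting error alone. Among the 20 members with at least 100 summed counts, 0 were at least 2-fold higher in embryo 1, against 3.35% of all 14011 genes with as many counts. At least 2-fold higher in embryo 2 were 2 of 20 members, against 1.43% of all genes. These were Hist3h2ba, at a ratio of 0.283 (0.269 to 0.298) or 3.53-fold higher in embryo 2, and Hist1h2ai, at 0.436 (0.276 to 0.663) from 33.3 and 69.0 counts. The posterior SD of Hist1h2ai was 50.3% of its count in embryo 1, so its ratio is uncertain. Hist1h1e was higher in embryo 1 at a ratio of 2.00 (1.58 to 2.56), just short of the limit on the log2 scale with its prior count, and Hist1h1c at 1.52 (1.21 to 1.93). Hist1h2ap was higher in embryo 1 at 1.29 (1.24 to 1.35). Within 1.5-fold were 16 of 20 members (80.0%), against 85.8% of all genes with as many counts. The median log2 ratio of the 20 members was -0.09, against -0.01 for all genes, and the median absolute log2 ratio was 0.23 for both. The sign of the members' median turned to 0.02 with spike-in totals and 0.05 with deposited TPM, where the median of all genes stood at 0.11 and 0.13, so the members' median was below that of all genes in each case.

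**Figure D5:**
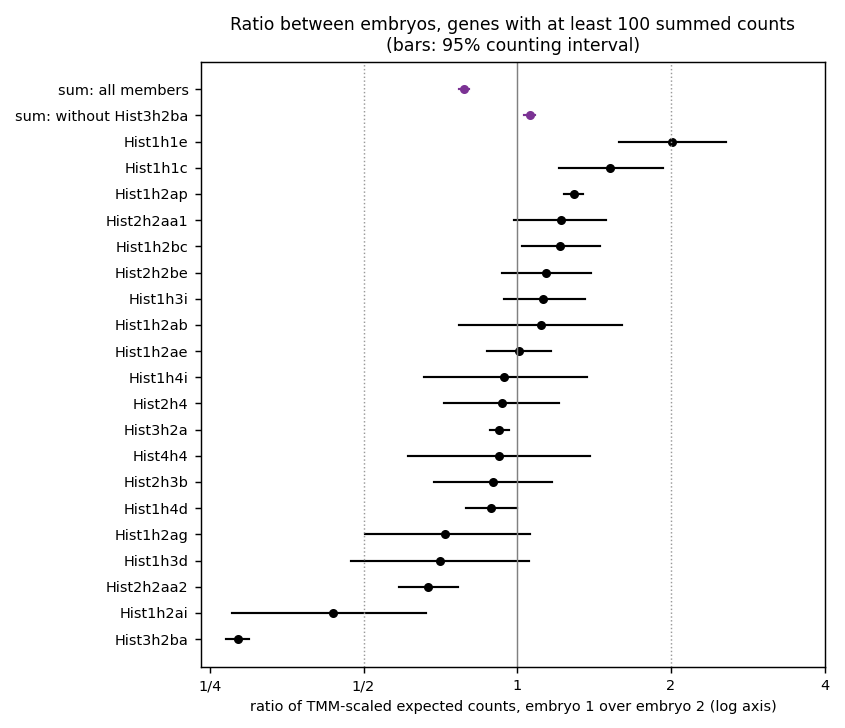
Ratio of TMM-scaled expected counts of embryo 1 over embryo 2 (log axis) with 95% counting intervals for the 20 members with at least 100 summed counts, and for 2 sums. Hist3h2ba stands at 0.283, and the sum of all members lies at 0.787 with it and at 1.06 without it.

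Hist3h2ba decided the direction of the summed counts. The sum over all members had a ratio of 0.787 (0.770 to 0.804), and without Hist3h2ba it was 1.06 (1.03 to 1.08). Without Hist1h2ap it was 0.656 (0.639 to 0.673), and without the 4 leading members it was 0.993 (0.945 to 1.04). By class the ratio was 1.71 (1.47 to 2.00) for H1, 1.06 (1.03 to 1.09) for H2A, 0.353 (0.337 to 0.370) for H2B, 0.954 (0.849 to 1.07) for H3 and 0.877 (0.802 to 0.959) for H4. The H3 ratio crossed to 1.03 with spike-in totals and 1.09 with deposited TPM. Without Hist3h2ba the H2B ratio was 1.14 (1.01 to 1.27), and without Hist1h2ap the H2A ratio was 0.905 (0.871 to 0.940). Hist3h2a, the neighbour of Hist3h2ba, had a ratio of 0.922 (0.883 to 0.964), although its TPM was slightly higher in embryo 1.

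Several lists of cell type markers differed between the embryos as well. All 10 markers of dividing cells were higher in embryo 1, with a summed TPM of 461 in embryo 1 and 277 in embryo 2. Their median log2 ratio was 0.70, against -0.01 for all genes. Of the 20 histone members with at least 100 summed counts, 9 were higher in embryo 1 by TMM-scaled counts, with the median log2 ratio of -0.09 given above. Top2a, the topoisomerase of mitotic chromosomes, had the highest ratio of the 10 markers, with 54.2 TPM in embryo 1 and 19.4 in embryo 2. Pcna, the clamp of the replication fork, had the lowest, with 104 and 90.6. Mcm2 had 31.21 and 16.98, Rrm2 50.37 and 30.3, Tk1 14.66 and 10.16, and Mcm5 21.35 and 15.01, in embryo 1 and embryo 2. Whether markers of mitosis and of DNA copying differed as groups was not tested. Of the neuron markers 3 of 4 were higher in embryo 2, with sums of 3943 TPM in embryo 1 and 4316 in embryo 2. The 4 progenitor markers were split, with 2 higher in each embryo and a median log2 ratio of 0.01. They summed to 151 TPM in embryo 1 and 133 in embryo 2. All 4 mesenchyme markers were higher in embryo 1 (322 against 4.66 TPM), as were all 4 macrophage markers (49.7 against 13.1) and all 4 erythroid markers (6787 against 4445). None of these markers was at 0 in either embryo, and their part in the ratios of the histone genes was not tested. All 5 midbrain markers were detected, while 0 of 3 forebrain and 0 of 4 hindbrain and spinal cord markers were, with Hoxb3 and Hoxb8 at 0 counts. Of the testis germ cell markers 0 of 3 were detected and Tnp1 was at 0 counts.

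Members with a long annotated 3′ UTR, a region where histone mRNAs are usually short, were counted from the transcript tables. The M21 3′ UTR was used where the transcript had the deposited length, and a transcript of another length was called short when its deposited length left at most 150 bases beyond the coding sequence. By this rule, transcripts with a 3′ UTR over 150 bases held 22.5% of the member TPM in embryo 1 and 44.8% in embryo 2. They belonged to 13 genes, and those with at least 100 summed counts were Hist3h2ba, Hist3h2a, Hist2h2be, Hist1h1c, Hist2h4 and Hist1h4i. With the M21 3′ UTR taken at any deposited length, the share was 38.2% in embryo 1 and 57.3% in embryo 2, over 26 genes. This adds Hist1h4d, whose M21 3′ UTR has 822 bases although its deposited transcript has 393 in all, and Hist1h2ae, Hist1h2bc, Hist1h1e, Hist1h3d and Hist4h4 among the genes with at least 100 summed counts. At a limit of 300 bases, which leaves out Hist3h2ba, the share was 9.16% in embryo 1 and 7.60% in embryo 2 by the first rule, and 20.9% and 16.9% with M21 at any length. Since 60 of the 64 members have a single annotated transcript, these shares follow the annotation and do not show where the mRNAs end.

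Promoter sequences from RefSeq (GRCm38.p6, 250 bases before to 50 after the start) were matched to 59 members, with 60 sequences in all. On either strand TATAAA occurred in 58.3% of them, against 13.6% of all 32851 promoters. Sequences of divergent partners can overlap, so the same match can count for both genes of a pair, for each word. The box CCAAT, known to be bound by NF-Y, occurred in every H1, H2A, H2B and H3 promoter and in 25.0% of the H4 promoters, against 37.4% of all. The octamer ATTTGCAT, known to be bound by Oct factors, occurred in 38.9% of H2A and 35.7% of H2B promoters and in none of the H1, H3 or H4 promoters, against 1.74% of all. AAACACA occurred in 83.3% of H1 promoters, against 7.18% of all. None of these words contains another, and a match is a description and not a site. The 200 bases before the start are shown for the neighbours Hist3h2ba and Hist3h2a, which differ in ratio, and for the leading H4 and H1 genes, with matches to any of these words in capitals, 5′ to 3′ on the gene's strand. They lie at chr11:58948711-58948910 (plus), chr11:58954485-58954684 (plus), chr13:23581368-23581567 (plus) and chr13:23622559-23622758 (minus).
Hist3h2ba: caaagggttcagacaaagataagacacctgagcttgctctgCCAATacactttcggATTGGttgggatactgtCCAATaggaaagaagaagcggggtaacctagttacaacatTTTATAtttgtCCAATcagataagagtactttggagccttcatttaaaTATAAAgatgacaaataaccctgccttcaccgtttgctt
Hist3h2a: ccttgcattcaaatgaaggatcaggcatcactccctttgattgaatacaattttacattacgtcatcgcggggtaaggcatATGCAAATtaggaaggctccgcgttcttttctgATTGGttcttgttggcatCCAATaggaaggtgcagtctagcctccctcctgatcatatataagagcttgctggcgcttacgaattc
Hist1h4d: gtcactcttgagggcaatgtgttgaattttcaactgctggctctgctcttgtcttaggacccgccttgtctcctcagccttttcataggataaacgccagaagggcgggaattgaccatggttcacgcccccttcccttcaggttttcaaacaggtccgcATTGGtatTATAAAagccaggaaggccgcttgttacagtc
Hist1h1e: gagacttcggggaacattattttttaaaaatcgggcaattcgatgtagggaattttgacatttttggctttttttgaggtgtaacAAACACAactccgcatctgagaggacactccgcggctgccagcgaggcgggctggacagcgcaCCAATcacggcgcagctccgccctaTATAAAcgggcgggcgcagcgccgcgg
The Hist3h2ba stretch holds TATAAA and CCAAT, and the Hist3h2a stretch holds CCAAT and the octamer but not the exact word TATAAA. Variants of these words were not searched for, and a link between the words and the ratios was not tested. The Hist1h1e stretch holds a match to AAACACA, the CCAAT box and also the TATAAA word.

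The listed histone genes outside the clusters, most of them expressed independently of replication, had a much higher summed TPM in these libraries. Their list of 13 genes summed to a TPM of 7259 in embryo 1 and 6777 in embryo 2, with 11 detected and a median of 90.9. Capture may differ between mRNAs with and without a poly(A) tail, and the cDNA priming was not given. The gap between the sums thus cannot be read as one of mRNA amount alone. H3f3a and H3f3b, which encode the replacement histone H3.3, had 3009 and 2314 TPM in embryo 1 and 2993 and 2050 in embryo 2. H2afz had 871 in embryo 1 and 723 in embryo 2, and H2afv had 302 and 264. Both encode H2A.Z. H2afb1 and H1foo, the oocyte linker histone gene, were at 0 counts in both. None of the 11 genes with at least 100 summed counts was 2-fold apart, and their median log2 ratio was 0.05.

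Genes for the making and use of histone mRNA were present in both embryos. Of 14 genes of 3′ end processing and turnover 13 were detected, with a median TPM of 35.6 and none past 2-fold. Slbp, which encodes the stem-loop binding protein, had 110 TPM in embryo 1 and 90.2 in embryo 2. The cap-binding gene Ncbp2 had 84.1 and 78.1, Ncbp1 had 80.9 and 56.9, and Cpsf3, the endonuclease of the cut, had 78.1 and 63.8. All 12 genes of the histone locus body and of histone gene transcription were detected, with a median of 12.0. The NF-Y subunit Nfyc had 78.5 TPM in embryo 1 and 69.4 in embryo 2, Nfyb had 45.0 and 40.4, the octamer factor Pou2f1 had 22.5 and 20.8, and Yy1 had 16.0 and 17.2. Ccne2, a cyclin of S phase entry, was the only gene of this list past 2-fold, with 13.2 TPM in embryo 1 and 6.52 in embryo 2 and a ratio of 2.00 (1.75 to 2.29).

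All 16 chaperone and assembly genes were detected, with a median TPM of 47.6, and 13 were higher in embryo 1. The share of all genes higher in embryo 1 was not counted, and the median log2 ratio of all genes is given below. Npm1 had 406 TPM in embryo 1 and 378 in embryo 2, Rbbp4 had 278 and 217, Rbbp7 had 168 and 147, and Nap1l4 had 126 and 163. Asf1b, a chaperone of H3 and H4 in dividing cells, was past 2-fold, with 12.5 TPM in embryo 1 and 6.07 in embryo 2 and a ratio of 2.21 (1.84 to 2.67). The median log2 ratio was 0.15 for chaperone genes, 0.15 for 3′ processing genes and 0.16 for locus body genes, against -0.01 for all genes.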

How the data were processed

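The deposited expected counts are the authors' estimates of reads per gene and transcript, made on mm10 with GENCODE M4 according to the deposited text records. TPM and FPKM are the authors' values, per the file headers. The posterior SD of the count and the credible bounds of TPM were deposited by the authors and treated as a score of uncertain assignment. The quantifier, strand protocol and cDNA priming were not given in the sources used here. Without strand, reads of overlapping antisense genes, such as those at Hist2h2aa1, Hist2h2aa2 and Hist2h3b, cannot be told apart.

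Symbols, types, coordinates and transcript sequences came from GENCODE M21 (GRCm38, which is mm10). The M21 transcript had the deposited length for 46 members and another for 18. Library totals over all rows were 32716141 counts in embryo 1 and 30185472 in embryo 2, spike-ins included. Counts were rounded for the TMM factors of edgeR 4.0.16 (R 4.3.3), over Ensembl rows without spike-ins, and ratios used unrounded counts, adding a prior of 0.5 counts before log2. The 2-fold rule applied from 100 summed counts. Intervals are exact conditional binomial intervals at 95%, and floors are 3 counts. Both cover counting error only, since PCR copies of a molecule are counted as separate reads. The spread between 2 embryos cannot be tested, so no p-value is given. Python 3.11.15 with pandas 2.3.3, scipy 1.17.1 and matplotlib 3.10.9 was used, and the ratio code was checked on simulated counts.

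Named with values were the 20 members with the highest mean TPM, every H1 member, members past 2-fold, genes of divergent pairs with a level of 10, members with long 3′ UTRs and at least 100 summed counts, and the 4 highest and all past-2-fold genes of each pathway list. The exceptions Hist1h4b and Hist1h3e were named for their stem-loop form, and Hist4h4 as the single gene of its cluster. Hist1h4m, Hist1h2ah, Hist1h2ba and Hist1h2aa were named for their 0 counts, and Hist2h3c1, Hist2h3c2 and Hist1h2ac for their shared windows. Trim17, Top2a, Pcna, Mcm2, Rrm2, Tk1 and Mcm5 were comparators. All these exceptions were named after their values were seen. The members and lists were chosen with earlier results of these data known. The alternatives were DESeq2 1.42.0 size factors, total counts, spike-in totals, deposited TPM ratios, posterior mean TPM and FPKM. Further ones were other minima, another prior count, other 3′ UTR limits and leaving out an embryo or a gene.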

Additional observations from a re-analysis of the deposited data

How the results depend on the processing

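Of 125 alternative values for 25 results, 97 lay within a set margin of the value reported (1 SD between embryos for shares, the counting interval for ratios, the median absolute log2 ratio for the members' median, 1.5 times for counts), 27 lay outside it and 1 reversed. With 2 embryos, leaving 1 out stays within 1 SD by construction. Shares by FPKM do so too, since FPKM is proportional to TPM within a library. The ratio of summed counts, whose interval left out 1, reversed to 1.06 without Hist3h2ba, an alternative chosen after seeing the data, as was that without Hist1h2ap, at 0.656. Ratios whose intervals covered 1 also crossed it, namely H3 (1.03 with spike-in totals, 1.09 with TPM) and Hist4 (1.02 with TPM), and the members' median log2 ratio turned to 0.02 and 0.05 at these settings. The summed ratio was 0.850 with spike-in totals and 0.878 with deposited TPM, settings that put the median log2 ratio of all genes at 0.11 and 0.13. With expected counts in place of TPM, which leaves out the scaling for length, mean shares were 2.33% for H1, 3.61% for H3, 6.10% for H4, 43.5% for Hist1, 7.19% for Hist2, 49.0% for Hist3 and 0.314% for Hist4. Members at least 2-fold higher in embryo 1 numbered 1 with DESeq2 size factors, total counts, spike-in totals or TPM, which is Hist1h1e at the edge of the limit, 3 at a minimum of 10 summed counts and 6 with no minimum. Those higher in embryo 2 numbered 7 and 10 at these minima. The mean share of long 3′ UTR transcripts was 33.7% by deposited length, 8.38% at 300 bases, and 47.8% with the M21 3′ UTR at any length, added after seeing the data. With either embryo left out, detected members ranged from 41 to 43, the H2A share from 46.4% to 66.6%, the H2B share from 16.3% to 39.5%, the Hist1 share from 49.9% to 72.5%, the Hist3 share from 20.5% to 43.4% and the long 3′ UTR share from 22.5% to 44.8%. No paired analysis was possible because the study has only 1 group. Depth limits 44 members with under 100 summed counts, 15 of them under 10.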
